A study of Mus musculus with 12 samples.

Results

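The C/EBP transcription factor genes Cebpa, Cebpb, Cebpd, Cebpe and Cebpg were examined for open chromatin in mouse myeloid progenitors. Their regions were chosen as the rows that carry one of these 5 gene symbols in 4 of the authors' comparison tables, together with every called ATAC-seq peak that overlapped such a row or lay within 10 kb of one of the gene bodies (mm10). This gave 18 regions of the 73147 formed by joining the peaks of all libraries. Cebpa had 3 regions, Cebpb 4, Cebpd 3, Cebpe 4 and Cebpg 4. Of the 18, 8 were reached both by a row and by the 10 kb window, 9 by the window and not by a row, and 1 by a row alone.

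ATAC-seq maps open chromatin by the sites where the transposase Tn5 inserts adapters into nuclear DNA. The cells were granulocyte-monocyte progenitors (GMP) from C57BL6 bone marrow that carry ER-HOXA9, the homeodomain protein HOXA9 fused to the estrogen receptor, and every group was grown with stem cell factor, 10% serum, 4 mM glutamine and 0.5 uM beta-estradiol. The 12 libraries were 2 biological replicates in each of 6 groups. Day0 cells were untreated and were taken at the beginning. On day 2, Vehicle cells had received DMSO, LSD1i cells 200 nM GSK-LSD1 (which inhibits LSD1, a demethylase of histones), 6MP cells 5 uM of the purine analogue mercaptopurine, CER cells 5 uM cerulenin (which blocks fatty acid synthase), and Combo cells the 3 drugs. No group without the fusion or without beta-estradiol was analysed here, and whether the cells are 1 clone is not given in the sources used here. Each library was made from a mixture of cells, so fewer cells with a site open and less opening per cell cannot be told apart.

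C/EBP factors are basic leucine zipper proteins that bind DNA as dimers, with one another or with related zippers. C/EBPα is needed for the step from common myeloid progenitors to granulocyte-monocyte progenitors, and C/EBPε acts later, in the granules and terminal maturation of neutrophils. C/EBPβ drives granulocyte production under stress and takes part in macrophage gene activation, C/EBPδ is induced in inflammation, and C/EBPγ, which lacks an activation domain of its own, works through the partners it dimerises with. LSD1 removes methyl groups from histone H3 lysine 4 and is brought to DNA in myeloid cells by the repressors GFI1 and GFI1B.

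Values are given as summit signal. This is log2 of the fragment pileup at the highest summit of a region over the library's depth, taken as its smallest background, and it is centred so that 0 is the median of the 33367 regions called in all 12 libraries. Depth ranged from 2.44 to 4.55 fragments per position. The lists held 42651 to 56398 peaks per library. The median signal over background of the common regions was lowest in 6MP replicate 1, at 16.9 times, then 23.0 times in CER replicate 2, and lay between 28.3 and 42.7 times in the other libraries. A called peak at or within 10 kb of the gene was present in all 12 libraries for 9 of 9 GMP markers, but likewise for 4 of 4 B cell and 4 of 4 dendritic cell markers, so such peaks did not separate cell types. Ly6g, which marks mature neutrophils, and Cd8a, a T cell gene, had no such peak in any library.

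Of the 18 regions, 11 were called in all 12 libraries, 4 in 8 to 11 and 3 in 1 to 4. Each of the 5 genes had a peak over its start of transcription in every library. The number of C/EBP regions with a called peak ran from 12 in LSD1i replicate 1 to 16, and 175 of the 216 pairs of region and library held a peak. The regions missing in some libraries were, apart from those at Cebpb -2.3 kb and Cebpe +10.6 kb, weak ones with signals below -2, made of 11 to 33 fragments at the summit. At so few fragments, loss of a peak call is not a measurement of closure.

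**Figure D1:**
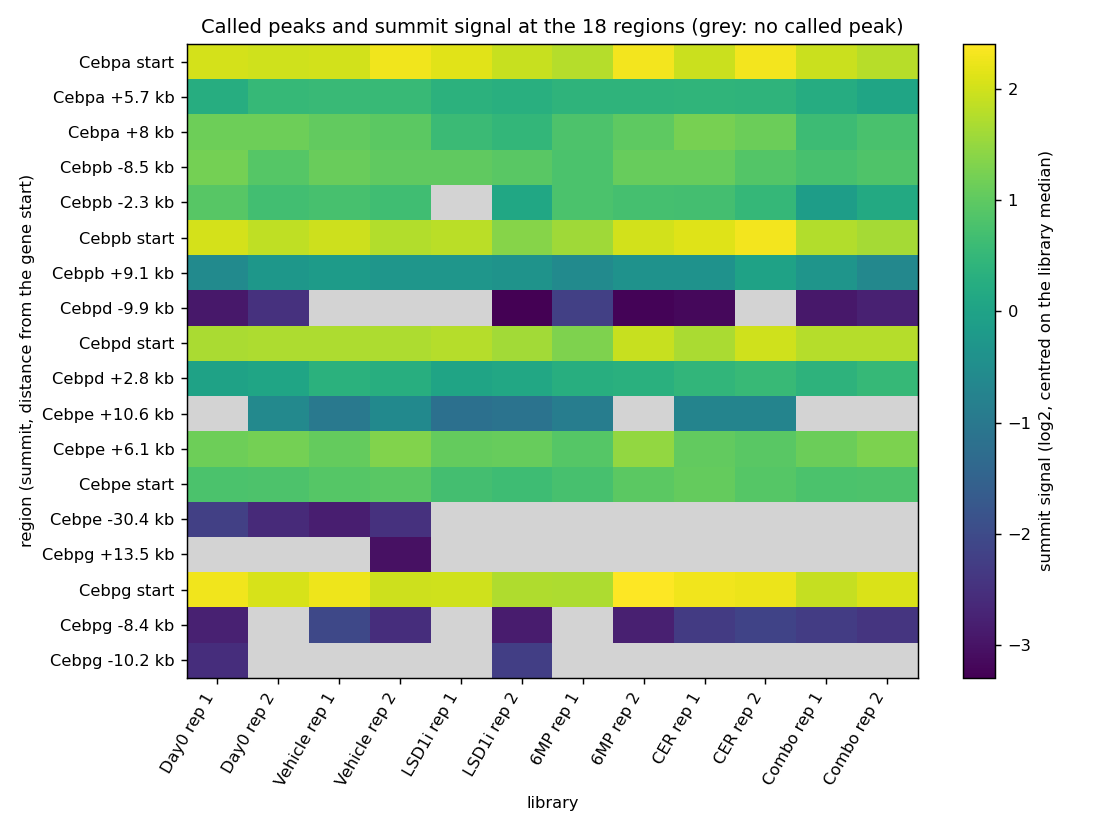
Summit signal (colour, log2, centred on the library median) of the 18 C/EBP regions (rows, named by gene and distance of the summit from the start) in the 12 libraries (columns). The 5 start regions were called in every library, and the grey cells, where no peak was called, lie mostly in weak distal regions.

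For Cebpa and Cebpb the highest summit fell in the promoter, upstream of the start in 11 and 12 of the 12 libraries, and these promoters are shown because they hold the summits that were compared. The sequences are the 250 bases before the start of transcription in RefSeq (GRCm38.p6, + strand of chr7:35119043-35119292 for Cebpa and of chr2:167688665-167688914 for Cebpb). Capitals mark the stretch spanned by the highest summits of the libraries, from base -115 at Cebpa, where the twelfth library's summit lay at base 3 of the gene, and from base -148 to base -59 at Cebpb.
Cebpa: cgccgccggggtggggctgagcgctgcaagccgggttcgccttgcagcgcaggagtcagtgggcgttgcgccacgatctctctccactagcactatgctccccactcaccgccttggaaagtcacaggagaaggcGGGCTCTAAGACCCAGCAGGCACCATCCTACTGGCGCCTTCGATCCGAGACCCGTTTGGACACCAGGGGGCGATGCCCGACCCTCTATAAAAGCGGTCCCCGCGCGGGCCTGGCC
Cebpb: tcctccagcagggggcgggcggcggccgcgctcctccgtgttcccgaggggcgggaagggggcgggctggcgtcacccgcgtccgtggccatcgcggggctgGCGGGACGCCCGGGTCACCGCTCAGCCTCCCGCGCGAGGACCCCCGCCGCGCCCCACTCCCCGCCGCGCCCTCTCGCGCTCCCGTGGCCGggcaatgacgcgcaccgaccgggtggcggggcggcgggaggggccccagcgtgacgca
The Cebpb promoter was 81.6% G and C with 41 CpG, and 99.3% of the 32851 RefSeq mouse promoters had a lower share. The Cebpa promoter was 66.4% G and C with 22 CpG, above 85.2% of promoters. At Cebpg the highest summits lay inside the gene, 62 to 114 bases after the start, in all 12 libraries, and its promoter was 70.8% G and C with 29 CpG. None of 6 exact letter patterns, searched on both strands, occurred in the 300-base windows (250 before and 50 after the start) of Cebpa, Cebpb or Cebpg. Sites that differ from a pattern by a base were not searched for, so binding sites of these factors may still be present. The patterns were the C/EBP motif TTGCNNAA, held by 10.8% of all such windows, the PU.1 motif GAGGAAGT (3.20%), the RUNX motif TGTGGT (16.8%), the GFI1 core AAATCA (14.0%), the AP-1 motif TGANTCA (7.81%) and the HOX-PBX motif TGATTTAT (0.977%).

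The start regions of 4 of the genes were among the stronger ones in these cells and that of Cebpe was weak but wide. Mean signal over the 12 libraries was 2.07 ± 0.23 (SD) at Cebpg, 2.04 ± 0.18 at Cebpa, 1.85 ± 0.26 at Cebpb, 1.72 ± 0.17 at Cebpd and 0.84 ± 0.12 at Cebpe. Among 8259 regions over the start of a protein-coding gene these signals stood at percentiles 80.8, 79.1, 69.9, 63.4 and 26.4. Neighbours in this order differed by less than their spread for the first 3 pairs: Cebpg minus Cebpa was 0.03 ± 0.20 (SD of the difference over 12 libraries), Cebpa minus Cebpb 0.19 ± 0.21 and Cebpb minus Cebpd 0.13 ± 0.21. Cebpd exceeded Cebpe by 0.88 ± 0.17 and in 12 of 12 libraries. The Cebpe start region spanned 3336 bases, against a median of 1448, which put its width at percentile 98.9, and it held 3 to 6 called summits per library. The Cebpa region was 2558 bases wide, with 1 or 2 summits, and that of Cebpb 2653, with 2 to 4.

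Cebpa lies on chromosome 7 at 35119293-35121928 on the + strand, a neighbour of Cebpg. Its start region (chr7:35118111-35120668) reached from the promoter into the gene. Replicates 1 and 2 gave 2.04 and 1.99 in Day0, 2.02 and 2.27 in Vehicle, 2.15 and 1.92 in LSD1i, 1.76 and 2.31 in 6MP, 1.95 and 2.30 in CER, and 1.94 and 1.80 in Combo. Every drug group overlapped Vehicle apart from Combo, whose values were below both Vehicle values, and 6MP replicate 1 was the lowest library. The difference of Combo from Vehicle, -0.27 ± 0.19 (SE), did not pass the test (limma, adjusted p = 0.432).

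The C/EBP region that passed the test for LSD1i is an intergenic one past Cebpa. It lies at chr7:35126604-35128047, with its summit +8 kb from the start and its near edge 4676 bases past the gene end. Signal was 1.14 and 1.15 in Day0, 1.04 and 0.97 in Vehicle, 0.59 and 0.47 in LSD1i, 0.80 and 0.98 in 6MP, 1.23 and 1.12 in CER, and 0.60 and 0.76 in Combo, from pileups of 129 to 335 fragments. The 4 libraries that received the LSD1 inhibitor, alone or in Combo, were the 4 lowest, and those of LSD1i lay below every other library. LSD1i was at 72.0% of Vehicle, a difference of -0.47 ± 0.14 (limma, Benjamini-Hochberg adjusted p = 0.0324), and Combo at 79.9% (-0.32 ± 0.14, limma adjusted p = 0.155). The mean of LSD1i and Combo against the mean of the other day 2 groups was -0.42 ± 0.09 (limma adjusted p = 0.000827). The LSD1i call was lost without Vehicle replicate 1 (difference -0.44), LSD1i replicate 1 (-0.53) or LSD1i replicate 2 (-0.41). It was also lost with scaling by depth in place of centring (limma adjusted p = 0.937), the mean of the summits (0.081) or centring by intensity (0.068). Absent peaks set to the lowest pileup (limma adjusted p = 0.0514) and the library name suffix as a covariate (0.0743) lost it too. The difference stayed between -0.35 and -0.63.

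A weaker region between this one and the gene, at chr7:35124582-35125260 (+5.7 kb, 679 bases, intergenic), was also lowest, among day 2 libraries, where LSD1 was inhibited. Signal was 0.25 and 0.52 in Day0, 0.56 and 0.54 in Vehicle, 0.37 and 0.30 in LSD1i, 0.42 and 0.41 in 6MP, 0.44 and 0.42 in CER, and 0.22 and 0.06 in Combo. The 4 LSD1-inhibited libraries ranged from 0.06 to 0.37 and the other 6 day 2 libraries from 0.41 to 0.56, with no overlap, while Day0 replicate 1 was as low as the inhibited ones. Neither LSD1i minus Vehicle, -0.21 ± 0.14 (limma adjusted p = 0.412), nor Combo minus Vehicle, -0.41 ± 0.14 (limma adjusted p = 0.0712), passed. The +8 kb and +5.7 kb regions were 2 of the 11 C/EBP regions called in all 10 day 2 libraries whose inhibited libraries lay below all others, where 6.64% of all regions did so and 5.77% lay above.

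Regions farther downstream of Cebpa, beyond the 10 kb window, were looked up after values had been seen. The region at +37 kb (chr7:35156139-35157684), the position of an enhancer known to act on Cebpa in mouse myeloid cells, had 1.82 and 1.97 in Vehicle, 1.57 and 1.55 in LSD1i, 1.34 and 2.09 in 6MP, 1.72 and 1.58 in CER, and 1.65 and 1.53 in Combo. LSD1i, Combo and CER all lay below Vehicle, 6MP replicate 1 was the lowest library, and the LSD1i difference of -0.34 ± 0.18 did not pass (limma adjusted p = 0.287). Nor did that of the LSD1-inhibited groups against the other day 2 groups (-0.18 ± 0.11, limma adjusted p = 0.253). The region at +34 kb (chr7:35152987-35154783) had 0.86 and 0.91 in Vehicle, 0.44 and 0.35 in LSD1i, and 0.23 and 0.56 in Combo. There LSD1i was lower by -0.49 ± 0.15 (limma adjusted p = 0.0468) and Combo by -0.49 ± 0.15 (limma adjusted p = 0.0394). The weak region at +25 kb (chr7:35144026-35145732) had an LSD1i difference of -0.40 ± 0.26, which did not pass (limma adjusted p = 0.406). In the authors' deposited table all 3 were listed as closed by LSD1i, with log2 folds of -0.63 (FDR 1.85e-08) at +37 kb, -0.84 (FDR 0.0263) at +34 kb and -0.47 (FDR 0.0191) at +25 kb. That table listed 46.8% of the regions called in all 12 libraries as closed, and these 3 are such regions. Alternative runs are not given for them.

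**Figure D2:**
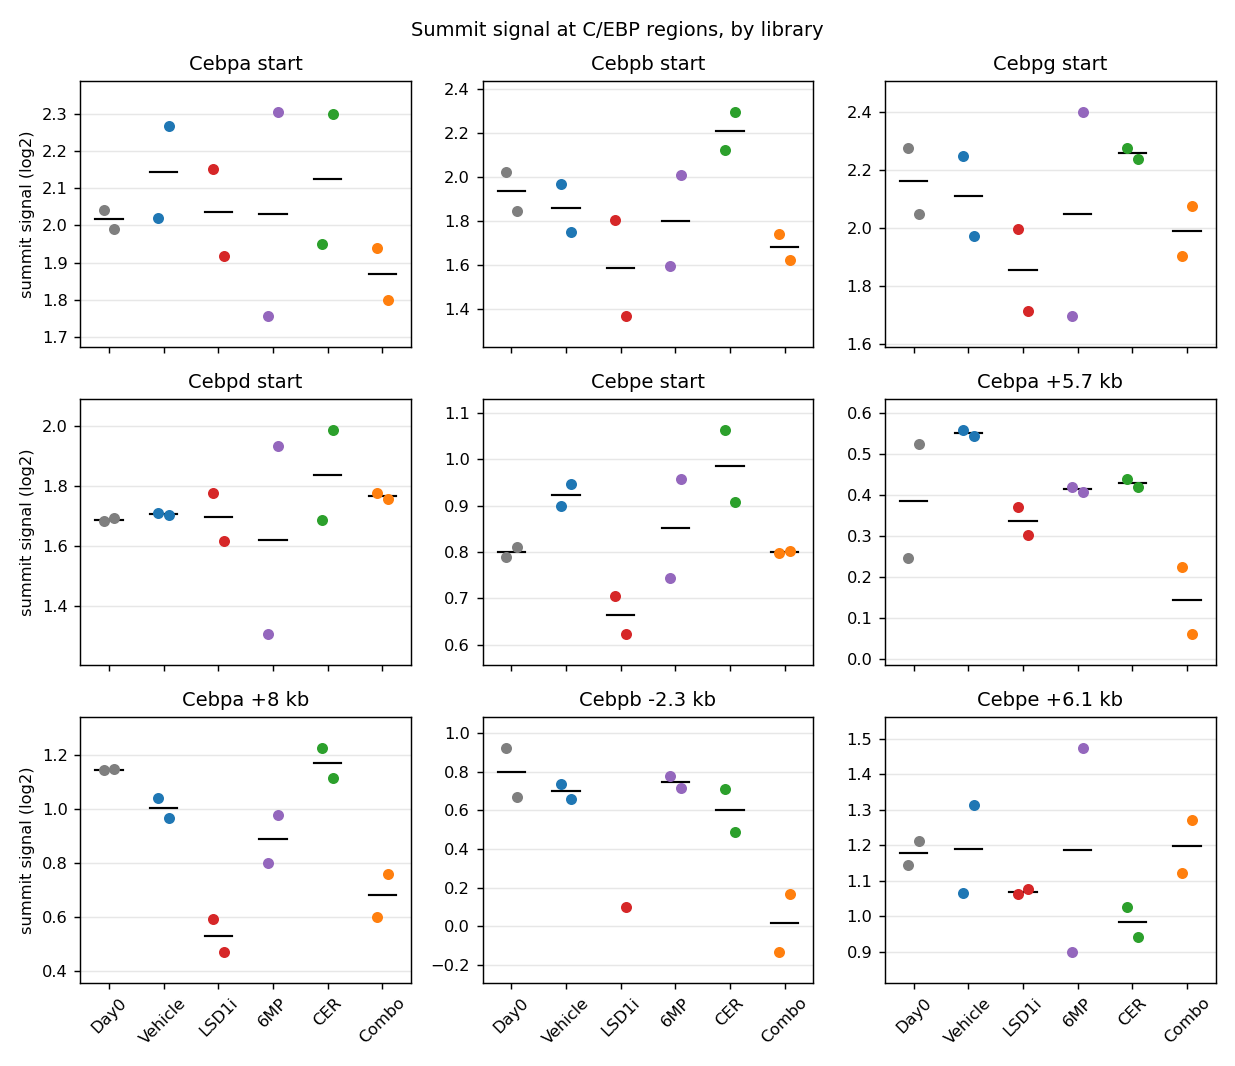
Summit signal (y axis, log2, each panel with its own scale) of 9 C/EBP regions in the 6 groups (x axis), 1 point per library and a bar at the mean where both replicates had a peak. At Cebpa +8 kb the 4 libraries with the LSD1 inhibitor lie between 0.47 and 0.76 and the other day 2 libraries between 0.80 and 1.23, while the start regions overlap between most groups.

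Cebpe, the gene of late granulocyte maturation, lies on chromosome 14 at 54710363-54712174 on the - strand. Its start region (chr14:54711799-54715134) reached from the first part of the gene to beyond -2.6 kb. The highest summit, at base -786, had 0.79 and 0.81 in Day0, 0.90 and 0.95 in Vehicle, 0.70 and 0.62 in LSD1i, 0.74 and 0.96 in 6MP, 1.06 and 0.91 in CER, and 0.80 and 0.80 in Combo. LSD1i was lowest and both LSD1i and Combo lay below Vehicle, but LSD1i minus Vehicle was -0.26 ± 0.14 and did not pass (limma adjusted p = 0.277).

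Other summits of this wide region lay farther below Vehicle in LSD1i than its highest one, a contrast between summits that was not tested. To see them, the summits of all libraries were clustered genome-wide, a step added after seeing the data. The summit at base -2631 had 0.21 and 0.13 in Vehicle, -0.54 and -0.59 in LSD1i, -0.21 and -0.19 in 6MP, and 0.32 and 0.08 in CER, with no summit called there in Combo replicate 1 and -0.22 in replicate 2. LSD1i libraries were the lowest, and LSD1i minus Vehicle was -0.73 ± 0.16 (limma adjusted p = 0.00464). The summit at base -194.5, close to the start, had 0.74 and 0.42 in Vehicle, 0.07 and -0.14 in LSD1i, and 0.38 and 0.31 in Combo. Here LSD1i was lower by -0.61 ± 0.16 (limma adjusted p = 0.0163), and the LSD1-inhibited groups were lower than the other day 2 groups by -0.53 ± 0.10 (limma adjusted p = 0.000276). The summit at base -2099 was lower in the same comparison by -0.43 ± 0.10 (limma adjusted p = 0.00165).

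Of 16 C/EBP summit clusters tested for LSD1i against Vehicle, 4 were lower and 0 higher, where 2.39% of all clusters were lower and 3.90% higher. Besides these 2 at Cebpe they were the Cebpa +8 kb summit (-0.48 ± 0.14, limma adjusted p = 0.0284) and a summit inside Cebpb described with that gene. The count fell to 0 without LSD1i replicate 1 or LSD1i replicate 2 and to 1, the Cebpe summit at base -2631, without Vehicle replicate 1. For the LSD1-inhibited groups against the other day 2 groups, 5 of 14 clusters were lower and 0 higher, where 16.1% of all clusters were lower and 9.58% higher. Without 6MP replicate 1 the count was 8, where 32.2% of all clusters were lower and 12.1% higher.

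**Figure D3:**
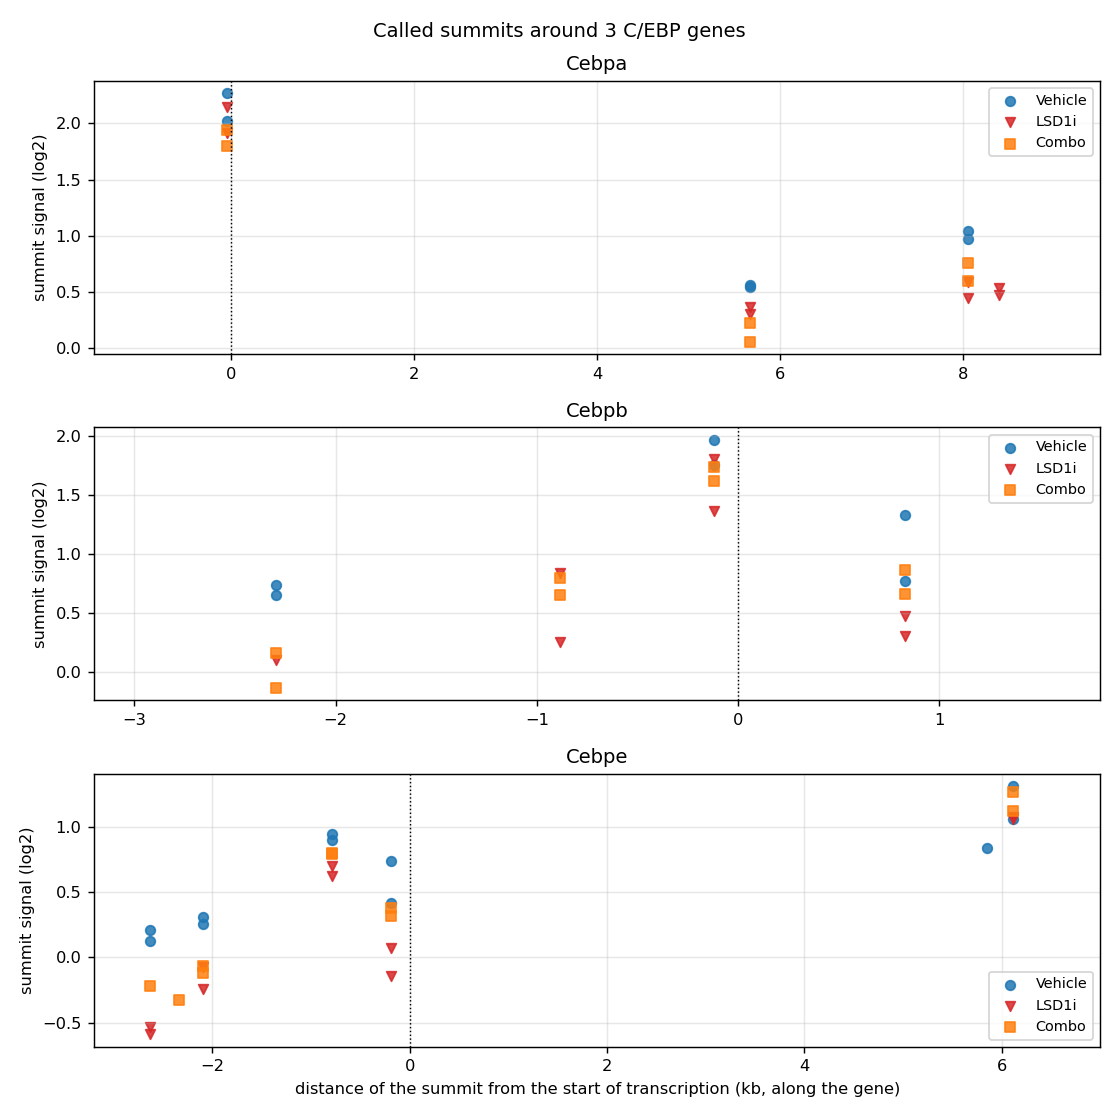
Summit signal (y axis, log2) of called summits against their distance from the start of transcription (x axis, kb along the gene, dotted line at the start) for Cebpa, Cebpb and Cebpe, 1 point per library of Vehicle, LSD1i and Combo. The LSD1i points lie farthest below Vehicle at Cebpe -2631 and -194.5 and Cebpb +830 bases, and overlap Vehicle at the summits nearest the starts of Cebpa and Cebpb.

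The other Cebpe regions were distal. The one past the gene end at +6.1 kb (chr14:54705695-54707064, intergenic) had a higher signal, by its median over libraries (1.10), than the start region (0.81). It had 1.14 and 1.21 in Day0, 1.06 and 1.31 in Vehicle, 1.06 and 1.08 in LSD1i, 0.90 and 1.47 in 6MP, 1.03 and 0.94 in CER, and 1.12 and 1.27 in Combo. All groups but CER overlapped Vehicle and LSD1i minus Vehicle was -0.12 ± 0.16 (limma adjusted p = 0.698). The +10.6 kb region (chr14:54701458-54701930) was called in 8 libraries, with -0.99 and -0.59 in Vehicle, -1.19 and -1.12 in LSD1i, and no peak in Day0 replicate 1, 6MP replicate 2 or either Combo library. The LSD1i difference there, -0.36 ± 0.21, did not pass (limma adjusted p = 0.34).

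The region at -30.4 kb (chr14:54742368-54742737), inside an intron of the amino acid transporter gene Slc7a8, belongs to the set by a row of the authors' table that names Cebpe. It had a peak in both Day0 libraries (-2.20 and -2.60) and both Vehicle libraries (-2.81 and -2.49) and in none of the other 8. Its summits held 12 to 28 fragments.

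Cebpb, the stress and inflammation factor, lies on chromosome 2 at 167688915-167690432 on the + strand. Its start region (chr2:167687520-167690172) covered most of the gene. Signal was 2.02 and 1.85 in Day0, 1.97 and 1.75 in Vehicle, 1.81 and 1.37 in LSD1i, 1.60 and 2.01 in 6MP, 2.12 and 2.30 in CER, and 1.74 and 1.62 in Combo. CER libraries were the highest and LSD1i replicate 2 the lowest, and LSD1i and 6MP overlapped Vehicle. LSD1i minus Vehicle was -0.27 ± 0.18 (limma adjusted p = 0.396) and CER minus Vehicle 0.35 ± 0.18 (limma adjusted p = 0.425). The LSD1-inhibited groups were at 79.9% of the other day 2 groups, -0.32 ± 0.11 (limma adjusted p = 0.0345). That call was lost when any one of Vehicle replicate 1 (limma adjusted p = 0.091), LSD1i replicate 2 (0.3), CER replicate 2 (0.0956), Combo replicate 1 (0.0802) or Combo replicate 2 (0.139) was left out, with absent peaks at the lowest pileup (0.0818), with centring by intensity (0.0868) and with scaling by depth (0.985), where the difference was -0.04.

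A second summit of this region lay 830 bases into the gene. It had 1.34 and 0.78 in Vehicle, 0.31 and 0.48 in LSD1i, 0.62 and 1.49 in 6MP, 1.44 and 0.96 in CER, and 0.66 and 0.87 in Combo. Both LSD1i libraries were below all others, and LSD1i was lower than Vehicle by -0.66 ± 0.20 (limma adjusted p = 0.0458). The call was lost without Vehicle replicate 1 (-0.38, limma adjusted p = 0.465), LSD1i replicate 1 (limma adjusted p = 0.302) or LSD1i replicate 2 (limma adjusted p = 0.192). The LSD1-inhibited groups were lower than the other day 2 groups by -0.52 ± 0.13 (limma adjusted p = 0.00324). For Combo against Vehicle, 1 of 16 C/EBP summit clusters was lower, the one at -2.3 kb from Cebpb, and 0 were higher, where 3.49% of all clusters were lower and 4.84% higher.

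The region 2.3 kb before Cebpb gave the one C/EBP call for Combo. At -2.3 kb (chr2:167686385-167687028, intergenic in RefSeq) signal was 0.93 and 0.67 in Day0, 0.74 and 0.66 in Vehicle, 0.78 and 0.72 in 6MP, 0.71 and 0.49 in CER, and -0.13 and 0.17 in Combo. LSD1i replicate 2 had 0.10 and LSD1i replicate 1 no called peak. The 3 inhibited libraries with a peak lay below every other library. Combo was at 62.3% of Vehicle, -0.68 ± 0.15 (limma adjusted p = 0.0028), and the call was lost without Combo replicate 1 (limma adjusted p = 0.108), with scaling by depth (1) and with absent peaks at the lowest pileup (0.644). The region sits on a high local background of 51.2 to 147 fragments and stood at 1.5 to 2.45 times that background. LSD1i replicate 1 has no background value here, and that of a neighbouring region, 79.6 fragments, was used instead. By this estimate a summit would have needed 114 fragments, a signal of -0.02, to be listed. LSD1i was therefore not tested here. The run with absent peaks gave LSD1i replicate 1 its lowest pileup, 13 fragments. In that run Combo minus Vehicle stayed at -0.68 and its SE was 0.63. Neither Combo nor Vehicle lacks a peak here, so that run cannot judge the Combo call.

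The remaining Cebpb regions were distal. At -8.5 kb (chr2:167679850-167681038, intronic in the authors' annotation) signal was 1.22 and 0.90 in Day0, 1.09 and 1.01 in Vehicle, 1.02 and 0.95 in LSD1i, 0.78 and 1.08 in 6MP, 1.09 and 0.87 in CER, and 0.75 and 0.83 in Combo. Combo was below Vehicle in both replicates, with a difference of -0.26 ± 0.15 (limma adjusted p = 0.333). At +9.1 kb (chr2:167697752-167698554) signal ranged from -0.64 to -0.02 and no comparison passed.

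Cebpd, which is induced in inflammation, lies on chromosome 16 at 15887286-15889545 on the + strand. Its start region (chr16:15886656-15888622) did not pass in any comparison. Signal was 1.68 and 1.69 in Day0, 1.71 and 1.70 in Vehicle, 1.78 and 1.62 in LSD1i, 1.31 and 1.93 in 6MP, 1.69 and 1.99 in CER, and 1.78 and 1.76 in Combo. The widest gap was between the 6MP replicates. LSD1i minus Vehicle was -0.01 ± 0.17 (limma adjusted p = 0.978) and Combo minus Vehicle 0.06 ± 0.17 (limma adjusted p = 0.873). For the LSD1-inhibited groups against the other day 2 groups the difference was 0.01, but with libraries centred by intensity it was 0.18 ± 0.06 (limma adjusted p = 0.0497), so the call at this region depends on the scaling.

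A region over the end of Cebpd, at +2.8 kb (chr16:15889178-15890761, also reaching into the DNA repair scaffold gene Spidr), had its lowest signals in Day0 and LSD1i. It had -0.02 and 0.06 in Day0, 0.34 and 0.28 in Vehicle, 0.04 and 0.13 in LSD1i, 0.27 and 0.31 in 6MP, 0.46 and 0.54 in CER, and 0.39 and 0.53 in Combo. Day0 and LSD1i lay below Vehicle, and CER and Combo above it. The differences did not pass, with Vehicle minus Day0 at 0.29 ± 0.14 (limma adjusted p = 0.442), LSD1i minus Vehicle at -0.22 ± 0.14 (limma adjusted p = 0.38) and Combo minus LSD1i at 0.37 ± 0.14 (limma adjusted p = 0.291). The -9.9 kb region (chr16:15877287-15878601) was called in 8 libraries, with signals from -3.29 to -2.21 and 11 to 24 fragments. Both Combo libraries had a peak there, and neither Vehicle library did.

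Cebpg lies on chromosome 7 at 35046422-35056566 on the - strand and had the highest mean start signal of the family, though it was above Cebpa in 6 of 12 libraries, with a mean difference of 0.03 ± 0.20 (SD, n = 12). Its start region (chr7:35055755-35057435, shared with the gene model Gm45095) had 2.27 and 2.05 in Day0, 2.25 and 1.97 in Vehicle, 2.00 and 1.72 in LSD1i, 1.70 and 2.40 in 6MP, 2.27 and 2.24 in CER, and 1.9 and 2.07 in Combo. LSD1i, 6MP, CER and Combo each overlapped Vehicle, and LSD1i minus Vehicle was -0.25 ± 0.20 (limma adjusted p = 0.492). Its distal regions were weak. The one at -8.4 kb (chr7:35064388-35065302) was called in 9 libraries at -2.85 to -2.06, that at -10.2 kb in 2, and that at +13.5 kb, within the peptidase gene Pepd, in 1.

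Counted over the family, LSD1i against Vehicle gave 1 of 12 tested C/EBP regions lower (Cebpa +8 kb) and 0 higher, where 2.05% of all 41322 regions tested were lower and 4.00% higher. All 12 differences were below 0, as were 54.3% of those over all regions tested, with a median of -0.22 against -0.04. With libraries centred by intensity 8 of the 12 were below 0, with a median of -0.12 against 0.01, and the Cebpb start moved to -0.10 and the Cebpg start to -0.08. Combo against Vehicle gave 1 of 13 lower (Cebpb -2.3 kb) and 0 higher, where 3.11% of all regions were lower and 4.97% higher, and the median was -0.18 against -0.09. The LSD1-inhibited groups against the other day 2 groups gave 2 of 11 lower (Cebpa +8 kb and the Cebpb start) and 0 higher, where 14.8% of all regions were lower and 9.88% higher. Without 6MP replicate 1 the last count was 5 of 11, where 30.5% of all regions were lower and 12.8% higher. LSD1i and Combo were set against the same Vehicle libraries, so these comparisons are not independent.

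No C/EBP region passed in the other comparisons by limma. For Vehicle against Day0, 13 regions were tested and 1 had an unadjusted p under 0.05, where 0.0710% of all regions were called higher and 0.0101% lower. For 6MP, 12 were tested and 0 had an unadjusted p under 0.05, where 0.00% of all regions were called in either direction. For CER, 14 were tested and 0 had an unadjusted p under 0.05, where 0.154% were higher and 0.174% lower. For Combo against LSD1i, 11 were tested and 1, at Cebpd +2.8 kb, had an unadjusted p under 0.05, where 0.0893% were higher and 0.0229% lower.

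Library names carry a suffix that splits the day 2 libraries, and its meaning is not given in the sources used here. Both Day0 libraries carry the letter P and no day 2 library does, so differences of Vehicle from Day0 cannot be told apart from that suffix. Vehicle replicate 1, 6MP replicate 2, CER replicate 1 and Combo replicate 2 carry the letter R. Within the libraries without it, the LSD1-inhibited minus other day 2 difference at Cebpa +8 kb was -0.41, and within those with it -0.32. At the Cebpb start these were -0.24 and -0.41, and at Cebpb -2.3 kb Combo minus Vehicle was -0.79 and -0.57. Both LSD1i libraries lack the suffix, and against the Vehicle library without it they were lower at Cebpa +8 kb by -0.38 and -0.50.

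The authors' deposited tables listed more of these regions for LSD1i. In the authors' deposited table of LSD1i against Vehicle, 9 rows carry a C/EBP symbol. A further 4 rows over C/EBP regions carry the symbol of another gene model. All 13 were listed as closed, with a median log2 fold of -0.61. Of all 21247 rows listed there, 83.4% were closed, and the median log2 fold of the closed rows was -0.48. That table listed 24.1% of all union regions and 46.8% of those called in all 12 libraries as closed, against 9 of the 11 C/EBP regions called in all 12 and 12 of the 17 that were not reached by a row alone. Opened regions made up 4.80% of the union. Depth and scaling behind the authors' levels are not stated. On the depth-scaled signal, without centring, the median of all regions was itself -0.19 in LSD1i relative to Vehicle, and that shift is absent from the centred values given above. The measures differ as well, since the authors' levels are of normalised reads of a row and summit signal is the pileup at the highest summit. What sets the authors' counts and folds apart from those given above was not tested.

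The rows differed in size. Among regions not reached by a row alone, the largest log2 fold in LSD1i in the authors' deposited table was -0.92 (FDR 1.06e-08) at Cebpb -2.3 kb. The weak Cebpe -30.4 kb region, chosen only through its row there, had -1.01 (FDR 0.0064), so its value is not evidence about the family. The Cebpe start had -0.68 with the lowest FDR of the set (2.96e-11) in the authors' deposited table. Cebpa +8 kb, listed there under the gene model Gm45091, had -0.71 (FDR 4.51e-07 in the authors' deposited table) and Cebpa +5.7 kb -0.55 (FDR 0.000266). The other start regions in the authors' deposited table were -0.61 at Cebpb (FDR 0.00196), -0.51 at Cebpg (FDR 5.48e-05) and -0.30 at Cebpa (FDR 0.000133), and the Cebpd start was not listed. Cebpe +6.1 kb had -0.53, Cebpe +10.6 kb -0.67, Cebpg -8.4 kb -0.70, Cebpd +2.8 kb -0.33 and Cebpb -8.5 kb -0.30 in the authors' deposited table.

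For Combo the authors' deposited table listed 2 rows over C/EBP regions. Cebpb -2.3 kb was closed, with a log2 fold of -0.60 (FDR 0.0318), and the weak Cebpd -9.9 kb region, named there for the gene model Gm20082, was opened, with 0.76 (FDR 0.0413). That table listed 1.56% of union regions as closed and 9.30% as opened. The authors' deposited tables of Vehicle against Day0 and CER against Vehicle held no C/EBP row, where 0.982% and 0.00410% of union regions were listed as opened and 0.0369% and 0.231% as closed.

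**Figure D4:**
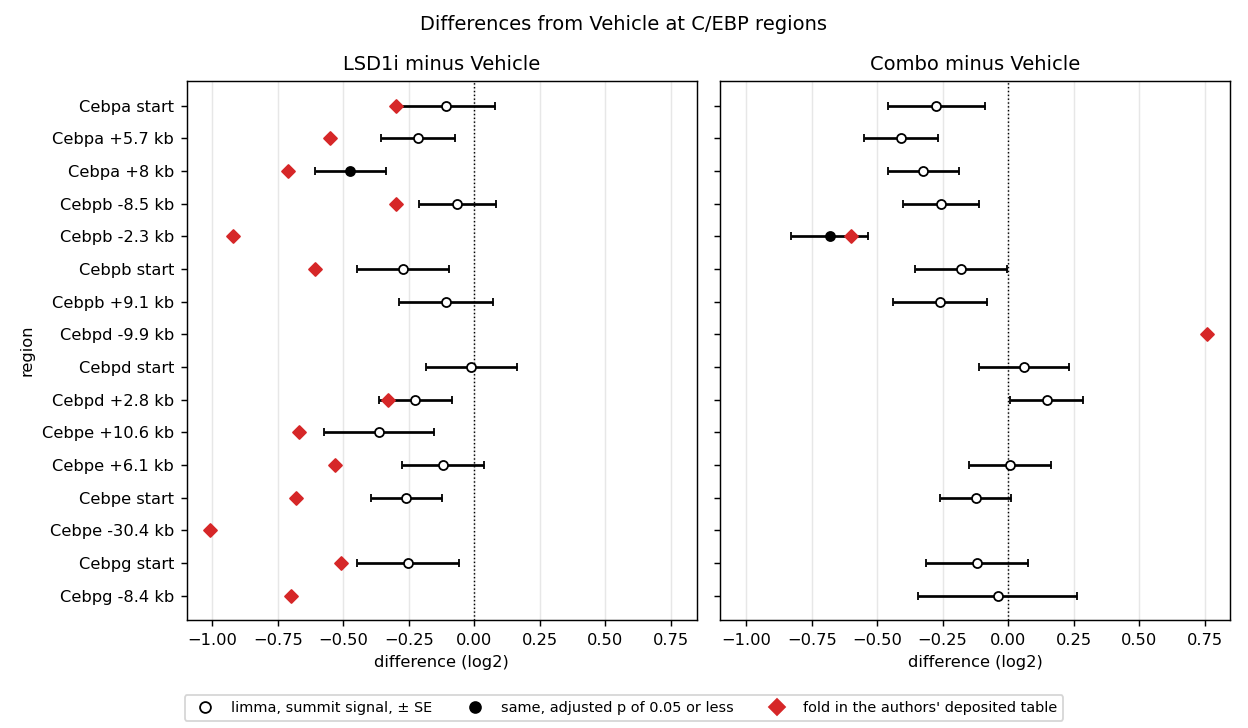
Difference from Vehicle (x axis, log2) at C/EBP regions (rows) for LSD1i and Combo. Circles are limma differences of summit signal with their SE, filled at an adjusted p of 0.05 or less, and diamonds are folds from the authors' deposited table, which lie to the left of the circles at every region of LSD1i that has both. The measures differ: diamonds come from normalised reads of a row and circles from the pileup at the highest summit.

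Regions of genes known as partners or regulators of the C/EBP factors changed in both directions. Of 26 such genes, 24 had a tested region that was nearest to them, and in LSD1i against Vehicle 5 genes had a higher region and 1 of them, Runx1, also a lower one. Of 183 regions 10 were higher (5.46%) and 3 lower (1.64%), where 4.00% of all regions were higher and 2.05% lower. Gfi1b and Gfi1, the repressors that recruit LSD1, had higher regions at 2246 and 7986 bases from their gene bodies, by 1.58 ± 0.23 (limma adjusted p = 3e-05) and 1.35 ± 0.23 (limma adjusted p = 0.000447). Runx1, a partner of C/EBPα on myeloid promoters, had a region inside the gene that was lower by -1.03 ± 0.24 (limma adjusted p = 0.00767) and a distant one that was higher.

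In Combo, 10 of these genes had a higher region and 5 a lower one, with 18 of 181 regions higher (9.94%) and 7 lower (3.87%), where 4.97% of all regions were higher and 3.11% lower. Gfi1b (1.66 ± 0.23, limma adjusted p = 8.83e-06), Trib2, whose product directs C/EBPα to degradation (1.12 ± 0.15, limma adjusted p = 4.53e-06), and Batf3, a zipper of dendritic cells (1.11 ± 0.24, limma adjusted p = 0.00263), had the largest rises. Those of Trib2 and Batf3 lay 304714 and 22714 bases from the genes. Runx1 (-1.31 ± 0.24, limma adjusted p = 0.000515), Irf8, the monocyte and dendritic cell factor (-1.08 ± 0.26, limma adjusted p = 0.007), and Fos, an AP-1 zipper (-0.90 ± 0.19, limma adjusted p = 0.00192), had the largest falls. The Fos region lay 43029 bases from the gene. In CER, Nfil3, a related zipper, was higher by 0.67 ± 0.14 (limma adjusted p = 0.0272), and Stat3, which signals from the G-CSF receptor, was lower by -0.87 ± 0.20 (limma adjusted p = 0.041). A region 57560 bases from Runx1 was also lower in CER, by -0.66 ± 0.14 (limma adjusted p = 0.0321). From Day0 to Vehicle, a region 88599 bases from Myc rose by 1.30 ± 0.26 (limma adjusted p = 0.0384) and one inside Myb fell by 1.07 ± 0.20 on the log2 scale (limma adjusted p = 0.0242). Day0 and Vehicle also differ in the suffix of their library names.

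Regions at known myeloid target genes of the C/EBP factors also changed in both directions. Of 30 targets, 27 had a tested region. LSD1i gave 6 of 75 regions higher (8%) and 2 lower (2.67%), with a median of 0.12 against -0.04 over all regions, of which 4.00% were higher and 2.05% lower. Combo gave 10 of 73 higher (13.7%) and 1 lower (1.37%), with a median of 0.20 against -0.09 over all regions, of which 4.97% were higher and 3.11% lower. The LSD1-inhibited groups against the other day 2 groups gave 12 of 66 higher (18.2%) and 6 lower (9.09%), where 9.88% of all regions were higher and 14.8% lower, with a median of 0.03 against -0.09. The region in Mmp8, a collagenase of neutrophil granules, had -0.66 and -0.61 in Vehicle, 0.76 and 0.83 in LSD1i, and 1.29 and 1.02 in Combo, with no overlap between groups. It was higher by 1.43 ± 0.15 in LSD1i (limma adjusted p = 3.85e-07) and by 1.79 ± 0.15 in Combo (limma adjusted p = 4.32e-09).

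Fpr1, a formyl peptide receptor of neutrophils, was higher by 1.25 ± 0.28 in LSD1i (limma adjusted p = 0.00541) and by 1.74 ± 0.28 in Combo (limma adjusted p = 9.74e-05). A region 13114 bases from Itgam, which encodes CD11b, was higher in LSD1i by 1.02 ± 0.19 (limma adjusted p = 0.000773). Chil3, a chitinase-like protein of myeloid cells, had a region that was higher in Combo by 1.40 ± 0.30 (limma adjusted p = 0.00223). That region was weak in Vehicle, at -2.89 and -2.32, and every other library with a peak there lay above Vehicle. Combo, at -1.34 and -1.05, overlapped Day0 (-1.84 and -0.94) and 6MP (-1.57 and -1.24), so the rise was not particular to Combo. Lower regions were at Ptgs2, the inducible cyclooxygenase (-0.75 ± 0.17, limma adjusted p = 0.0066), and Fcnb, a ficolin of granulocyte precursors (-0.66 ± 0.18, limma adjusted p = 0.0258), in LSD1i, and 93360 bases from Csf3r, the G-CSF receptor gene, in Combo (-0.89 ± 0.17, limma adjusted p = 0.000627). In CER, regions at Camp, a granule antimicrobial peptide (1.05 ± 0.24, limma adjusted p = 0.0477), and Chil3 (0.88 ± 0.20, limma adjusted p = 0.0477) were higher. For 6MP and for Combo against LSD1i no region of either list passed.

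Across the 12 libraries, the start regions of other genes were ranked by how closely they followed the C/EBP start regions. Among 8258 of them, the highest Pearson correlations of signal were with Immt (0.968), Cops3 (0.946) and Xpo6 (0.945) for Cebpa, Atp6v0b (0.977), Erlin1 (0.969) and Cog8/Nip7 (0.968) for Cebpb, Prkab2 (0.978), Btbd7 (0.977) and Dusp7 (0.972) for Cebpg, Cnot10 (0.952), Mesd/Tlnrd1 (0.952) and Chordc1 (0.944) for Cebpd, and Vsir (0.926), Max (0.909) and Msrb1 (0.905) for Cebpe. These points share their libraries and with them the enrichment of each library, in which 6MP replicate 1 is low and the start signals of Cebpa, Cebpd and Cebpg are lowest as well. The part of enrichment in these correlations was not tested. They are the highest among 8258 for each gene, so high values were assured by that choice.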

How the data were processed

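The submitters' processing notes name the build mm10 and the tools DiffBind, MACS2 2.1.2, Picard 2.18.26, SAMtools 1.9, Bowtie2 and Trimmomatic 0.38, with no settings or order. The authors deposited a peak list per library. Each deposited summit has a score, a ratio (its fold over local background) and its p-value and q-value as -log10. The authors' deposited tables give log2 levels and folds with a p-value and FDR, and hold rows with an FDR of 0.05 or less. Their table for 6MP was not used here.

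Read totals are not in the files. The pileup at each summit was solved from the fold and Poisson p-value, and 100% of summits gave a whole number (tolerance 0.001 in -log10 p). Fragments are not independent molecules. Coordinates are those of the joined peaks, counted from 1. Signals were centred on each library's median and compared with limma 3.58.1 (R 4.3.3, Python 3.11.15), in one fit of 6 group means with a mean-dependent prior variance, adjusted by Benjamini-Hochberg over all regions tested at 0.05. Regions without a peak in every library of a comparison were not tested. With 2 libraries against 2, an exact two-sided permutation test cannot go below 0.333. The fit was tested on simulated data.

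All regions listed by the authors, over a start, past the threshold or strongest of a gene are given by library. From the lists of partners and targets, at most 3 genes a direction and comparison, those with the largest differences, are named by the nearest gene end. The genes most alike were the 3 with the highest correlation. The members and lists were chosen with earlier results of these data known. Replicate numbers did not pair the samples. Promoters are RefSeq's, matched by symbol for 3 of 5 genes; Cebpd and Cebpe have no entry. Summits clustered within 100 bases, 2 libraries left out together and values within name suffixes were added after seeing the data.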

Additional observations from a re-analysis of the deposited data

Results flagged for a closer look

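At the Cebpd start region, LSD1i replicate 2 had a signal of 1.62, apart from the other 3 LSD1-inhibited libraries, the nearest of which was at 1.76. The gap was 0.875 of the range of these 4 libraries. It was the 1 set flagged among 23 sets of 4 or more libraries, where chance flags about 1 in 20.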

How the results depend on the processing

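The number of C/EBP regions lower in LSD1i than in Vehicle went from 1 to 0 with scaling by depth alone, the mean of the summits, centring by intensity, absent peaks set to the lowest pileup or the name suffix as a covariate, and was 0 to 1 with single libraries left out. For Combo the count went from 1 to 0 with scaling by depth, to 2 with the suffix covariate, which added Cebpa +5.7 kb, and was 0 to 1 with single libraries left out. With absent peaks at the lowest pileup the Combo count was still 1 but the region was Cebpe +10.6 kb, which has no peak in Combo, and not Cebpb -2.3 kb. That run set LSD1i replicate 1 at Cebpb -2.3 kb to 13 fragments, and the SE of Combo minus Vehicle there was 0.63 against 0.15. For LSD1-inhibited against other day 2 groups the count went from 2 to 0 with scaling by depth, was 1 to 5 with single libraries left out and 4 without 6MP replicate 1 and CER replicate 2. The regions behind it differed: with centring by intensity they were Cebpa +8 kb, lower, and the Cebpd start, higher; with absent peaks at the lowest pileup Cebpa +8 kb and Cebpb -2.3 kb, and with the mean of the summits the Cebpe start was added, giving 3. In the deposited Combo table the C/EBP symbol rows went from 1 to 0 at an FDR of 0.01 or less. With the replicate number as a block the counts were 1, 1 and 2, as without it. Cebpa +8 kb in LSD1i then had -0.47 (limma adjusted p = 0.0377). Deviations of same-numbered libraries correlated at -0.344 to 0.246, so the numbers do not pair them. These correlations followed the suffix R. They were positive where R falls on the same replicate number (Vehicle and CER 0.246, 6MP and Combo 0.139). Where it falls on opposite numbers they were negative (Vehicle and Combo -0.344, CER and Combo -0.205, Vehicle and 6MP -0.108, 6MP and CER -0.0382). Both LSD1i libraries lack R, while Vehicle replicate 1 carries it. The cause of this pattern and of the lost calls was not tested. The 4 differences at C/EBP regions that passed kept their sign in every alternative run, whereas of all 86 differences tested at these regions 53 changed sign in at least 1 alternative and 29 did so with scaling by depth alone. Weak regions of 11 to 33 fragments limit what a missing peak can show.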
